A study of Mus musculus with 6 samples.

Results

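The gene for the transcription factor p53 (Trp53) and 32 of its direct target genes, 33 genes in all, were followed among the 35976 genes listed for cultured mouse dorsal root ganglion (DRG) neurons. The members were chosen by symbol from common knowledge of the pathway, with earlier results of these data known. They were sorted by role into p53 and its inhibitors (4 genes), arrest and growth control (9), mitochondrial apoptosis (8), death receptors (4), DNA repair and nucleotide supply (4), and metabolism and autophagy (4). The mitochondrial class also holds apoptosis genes that act elsewhere in the cell, such as Aen and Perp. The death receptor class also holds the scaffold gene Pidd1. DRG neurons are sensory neurons that carry touch, temperature and pain to the spinal cord. All lumbar ganglia of wild-type C57BL/6 mice of both sexes, aged 2 to 3 months, were dissociated with enzymes and plated in medium with fetal bovine serum, nerve growth factor and GDNF. After 24 h on the dish, 3 cultures received vehicle and 3 received HC-HA/PTX3 at 15 µg/mL for another 24 h, and RNA was sequenced after removal of ribosomal RNA. HC-HA/PTX3 is a complex of heavy chain, hyaluronan and pentraxin 3 purified from human amniotic membrane. Both groups carry the replicate numbers 1, 2 and 3. The labels do not say whether the cultures came from separate animals, so no p-value measures a spread between animals. In the main fit, same-numbered cultures are compared. Its p-values measure how the treated minus vehicle difference varies between these pairs, and differences in level from pair to pair are left out. Only the fit without the replicate number measures the treatment against the spread between cultures of a group.

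p53 is held at a low level by the ubiquitin ligase Mdm2, itself one of its targets. When DNA is damaged, or ribosomes, nutrients or the nucleus are disturbed, p53 is mainly regulated as a protein, through its stability and its modifications, and it then switches on genes for cell cycle arrest, repair, altered metabolism or cell death. In neurons, which do not divide, the same target genes are known from axon injury, growth factor withdrawal and chemotherapy damage.

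The libraries held 37434266 to 54117547 counts, and all 33 members were among the 18277 genes tested, with at least 25 counts in every culture. Levels are given in CPM (counts scaled to the library total) after TMM normalization, which scales libraries to a common composition. A gene was called when the adjusted p was under 0.05 and the log2 fold change beyond 0.5, which is a fold of 1.41, in the quasi-likelihood test of edgeR, with p-values adjusted over all tested genes by the method of Benjamini and Hochberg and with a block for the replicate number. The label of DRG neurons was checked against marker genes. The 10 neuron markers summed to 6102 to 7694 CPM and were the most abundant of the 8 marker lists, but RNA of satellite glia (594 to 1940 CPM), fibroblasts (303 to 2152 CPM) and dividing cells (39.1 to 712 CPM) was present in every culture. The cultures were thus neuron-rich mixtures by these markers. In such bulk RNA, a change in the number of cells of a type and a change in RNA per cell cannot be told apart.

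After HC-HA/PTX3, members of every functional class were called higher, from 1 of 4 in p53 and its inhibitors, in repair and in metabolism to 6 of 8 in mitochondrial apoptosis. The cyclin gene Ccng1, the stress protein gene Trp53inp1, the cell death gene Bbc3 and the gene of the secreted factor Gdf15 rose by a fold of 2 or more. Of the 33 members, 17 (51.5%) were called higher and 0 were called lower, while 3.32% of all tested genes were called higher and 5.38% lower, or 8.7% in either direction. Because the members were chosen with earlier results of these data known, these shares describe them and are not an independent test. The median log2 fold change was 0.51 over the members and -0.01 over all tested genes. The log2 fold changes of the 17 called members ran from 0.51 to 1.38. By adjusted p alone, 21 members were higher, against 7.67% of tested genes. The estimate was positive for 29 members and negative for 4 (Mdm4, Fas, Ddb2 and Sesn1), none of which passed the test. All 3 treated cultures lay above all 3 vehicle cultures for 11 members, and 9.44% of tested genes had this order. The reverse order was found for 0 members and 8.57% of tested genes. Of the 17 called members, 8 had groups that did not overlap and 9 had overlapping groups.

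**Figure D1:**
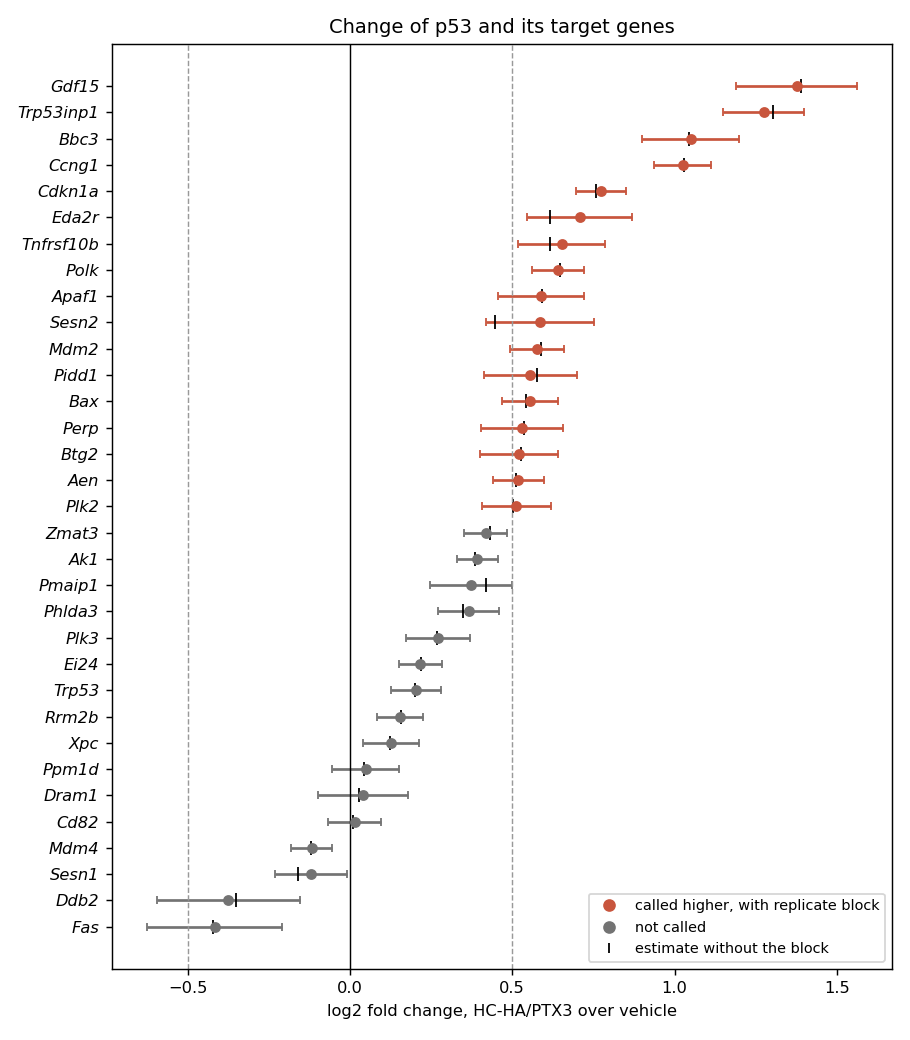
Log2 fold change, HC-HA/PTX3 over vehicle (horizontal axis), of each of the 33 members in order of size, from the blocked edgeR fit; points are estimates with bars of 1 SE, red for called and grey for other members, black ticks are the estimates without the block and dashed lines mark 0.5 in either direction. All 17 red points lie to the right of 0.5, from 0.51 for Plk2 to 1.38 for Gdf15, and the 4 negative estimates are grey.

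p53 itself and its feedback inhibitors were considered first. Trp53 (chr11:69580359-69591873, mm10) was at 47.1, 53.7 and 61.1 CPM in vehicle replicates 1, 2 and 3 and at 60.9, 57.0 and 68.0 CPM in the same-numbered HC-HA/PTX3 cultures. Each treated culture was above its numbered vehicle culture, yet the groups overlapped. The log2 fold change was 0.20 (SE 0.08) with an unadjusted p of 0.0223 and an adjusted p of 0.0878 in edgeR. The p53 transcript thus missed both thresholds and was not called. With ComBat-seq and limma its adjusted p was 0.0291, but the log2 fold change of 0.20 was again too small for a call. Over 11 alternative settings this change ran from 0.12 to 0.26, always under the fold threshold. Mdm2 (chr10:117688875-117710758), the ubiquitin ligase that p53 induces and that marks p53 for degradation, was at 84.4, 111 and 120.4 CPM in the vehicle cultures and at 129, 139 and 207 CPM with HC-HA/PTX3. The lowest treated culture was above the highest vehicle culture. Mdm2 rose (log2 fold change 0.58, SE 0.08, adjusted p = 0.00176 in edgeR). Without the replicate 3 cultures it was 0.49, just under the fold threshold, with an adjusted p of 0.0013. The other two inhibitors gave a different picture. Mdm4, a relative of Mdm2 that blocks p53's activation domain, averaged 86.4 ± 9.61 CPM (SD, n = 3) in the vehicle group and 79.4 ± 5.36 with HC-HA/PTX3 and was lower in each pair, at a log2 fold change of -0.12 (edgeR, adjusted p = 0.224). Ppm1d, the phosphatase Wip1 that removes activating phosphates from p53, averaged 14.3 ± 1.30 and 14.7 ± 0.324 CPM (SD, n = 3), a log2 fold change of 0.05 (edgeR, adjusted p = 0.785).

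Among the genes of arrest and growth control, 5 of 9 rose. Cdkn1a (chr17:29090976-29100727) encodes p21, the inhibitor of cyclin-dependent kinases through which p53 stops the cell cycle, and it had the highest level per length of the members with vehicle, 63.8 CPM per kb of exon. It was at 159, 198 and 323 CPM in the vehicle cultures and at 316, 302 and 532 CPM in the treated cultures. Vehicle replicate 3 exceeded treated replicates 1 and 2, so the groups overlapped, but every treated culture was above its numbered vehicle culture. The log2 fold change was 0.77 (SE 0.08, adjusted p = 0.000491 in edgeR). Ccng1 (chr11:40748552-40755311), the cyclin G1 that feeds back on Mdm2, went from 164, 189 and 206 CPM to 396, 322 and 422 CPM. Its groups were far apart, and it had the smallest adjusted p of the members (edgeR, 0.000282) at a log2 fold change of 1.03 (SE 0.09). With HC-HA/PTX3 both genes stood at 108 CPM per kb of exon.

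Gdf15 (chr8:70629393-70632456), a secreted stress cytokine of the TGF-beta superfamily, had the largest fold change of the members and the widest distance between replicates 1 and 3 in either group. It was at 0.624, 2.63 and 4.88 CPM in the vehicle cultures and at 2.24, 4.91 and 14.3 CPM with HC-HA/PTX3. Replicate 3 was the highest and replicate 1 the lowest in both groups, and the groups overlapped. Within pairs the log2 differences were 1.77, 0.89 and 1.54, and the log2 fold change was 1.38 (SE 0.19, adjusted p = 0.00133 in edgeR). The distance between replicates 3 and 1 of one group, 2.97 on the log2 scale in the vehicle group and 2.68 with HC-HA/PTX3, exceeded this treatment difference.

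The other called genes of this class moved less. Btg2, an antiproliferative factor of mRNA decay, was at 11.3, 14.8 and 16.4 CPM in the vehicle cultures and at 18.9, 16.5 and 25.9 CPM with HC-HA/PTX3. Plk2, a polo-like kinase that in neurons acts at synapses, was at 48.7, 60.0 and 94.0 CPM and at 90.0, 69.8 and 127 CPM. The Btg2 groups were separated only by the narrow step from 16.4 to 16.5 CPM, while those of Plk2 overlapped. The log2 fold change was 0.52 for Btg2 (SE 0.12, adjusted p = 0.0144 in edgeR). For Plk2 it was 0.51 (SE 0.11, adjusted p = 0.00884 in edgeR). Neither call held without the replicate 1 cultures, where the log2 fold changes were 0.42 and 0.33 (edgeR, adjusted p = 0.0998 and 0.0317), and that of Btg2 was also lost without the replicate 3 cultures, at 0.46. With ComBat-seq and limma both also fell short of the fold threshold, at 0.48 for Btg2 and 0.49 for Plk2, as did Plk2 with no filter on low counts. Zmat3, a zinc finger RNA-binding protein, and Phlda3, which competes with the kinase Akt for membrane lipids, had adjusted p-values of 0.00268 and 0.0214 in edgeR but fold changes under the threshold (log2 0.42 and 0.37). Plk3, another polo-like kinase, averaged 20.8 ± 6.05 and 25.1 ± 6.98 CPM (SD, n = 3) with an unadjusted p of 0.0191 and an adjusted p of 0.0792 in edgeR. The membrane protein gene Cd82 was at 27.0 ± 7.59 and 27.2 ± 7.24 CPM (SD, n = 3), a log2 fold change of 0.01.

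**Figure D2:**
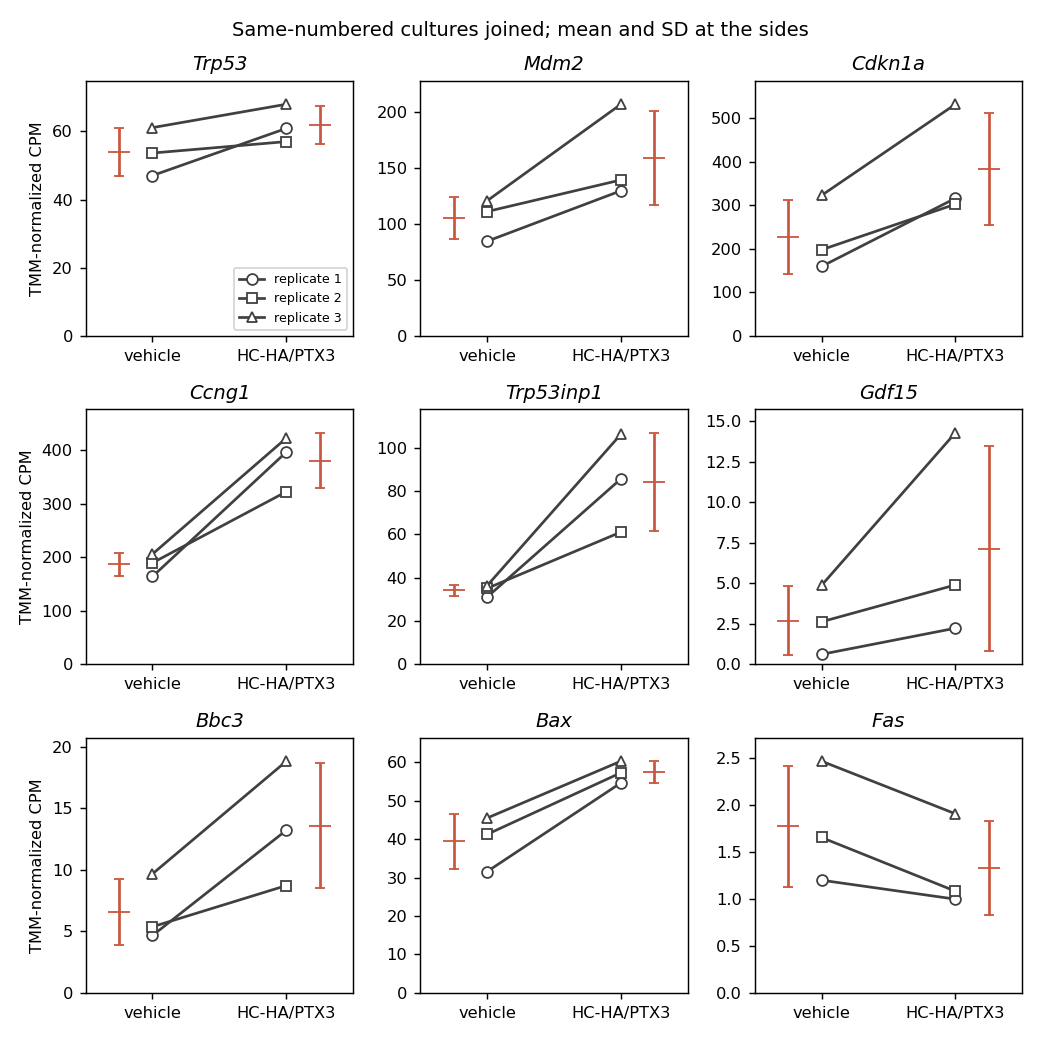
Levels in TMM-normalized CPM (vertical axes, linear and starting at 0) of 9 members in the 6 cultures; each line joins the vehicle and HC-HA/PTX3 cultures of one replicate number, and the red marks at the sides are the mean and SD of each group (n = 3). All lines slope upwards except those of Fas, which slope downwards, and the Gdf15 lines start from 0.624, 2.63 and 4.88 CPM.

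In the class of mitochondrial apoptosis, which also holds apoptosis genes that act elsewhere in the cell, 6 of 8 genes rose. Trp53inp1 (chr4:11156431-11174379), a stress-induced protein that acts with p53 in apoptosis and also in autophagy, was at 31.0, 35.1 and 36.3 CPM in the vehicle cultures and at 85.6, 61.0 and 106 CPM with HC-HA/PTX3. The vehicle cultures were close together and all treated cultures lay well above them. Its log2 fold change was 1.28 (SE 0.13, adjusted p = 0.000452 in edgeR). Bbc3 (chr7:16308393-16318205) encodes PUMA, a BH3-only protein that releases Bax and Bak from their inhibitors. It went from 4.67, 5.38 and 9.68 CPM to 13.2, 8.73 and 18.8 CPM, with treated replicate 2 below vehicle replicate 3. The log2 fold change was 1.05 (SE 0.15, adjusted p = 0.00169 in edgeR). Bax (chr7:45461697-45466898), the protein that forms pores in the outer mitochondrial membrane, was at 31.5, 41.2 and 45.5 CPM and at 54.6, 57.3 and 60.3 CPM. All treated cultures were above all vehicle cultures, and Bax rose (log2 fold change 0.56, SE 0.09, adjusted p = 0.00243 in edgeR). Without the replicate 1 cultures that of Bax was 0.44, under the fold threshold, with an adjusted p of 0.0183.

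Apaf1, the scaffold of the apoptosome that activates caspase-9, was at 26.4, 31.7 and 24.3 CPM in the vehicle cultures and at 41.8, 34.6 and 47.5 CPM with HC-HA/PTX3. Its groups did not overlap, and the log2 fold change was 0.59 (SE 0.13, adjusted p = 0.0125 in edgeR). Perp, a membrane protein of cell junctions, had a similarly separated pattern, at 7.29, 7.87 and 7.86 CPM and at 11.0, 9.44 and 12.95 CPM, and a log2 difference of 0.53 (SE 0.13, adjusted p = 0.0159 in edgeR). The nuclease gene Aen was at 34.6, 39.1 and 53.1 CPM and at 56.4, 51.9 and 72.3 CPM. Only treated replicate 2 of Aen lay below the highest vehicle culture, and the log2 fold change was 0.52 (SE 0.08, adjusted p = 0.00221 in edgeR). None of these 3 calls held without the replicate 1 cultures, where the log2 fold changes were 0.56 for Apaf1, 0.50 for Perp and 0.43 for Aen (edgeR, adjusted p = 0.0646, 0.101 and 0.0177). Without the replicate 3 cultures they were 0.41 for Apaf1 and 0.44 for Perp, again not called, and with ComBat-seq and limma the call of Perp was lost at the fold threshold. Pmaip1, the BH3-only protein Noxa, was at 24.7, 20.8 and 26.4 CPM and at 25.2, 25.2 and 45.7 CPM. Treated replicate 3 alone stood out, and with an unadjusted p of 0.0144 and an adjusted p of 0.0657 in edgeR it was not called. Ei24, a membrane protein of the endoplasmic reticulum, was at 91.4 ± 1.80 and 106 ± 9.72 CPM (SD, n = 3) without overlap, a log2 fold change of 0.22 (edgeR, adjusted p = 0.0439).

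**Figure D3:**
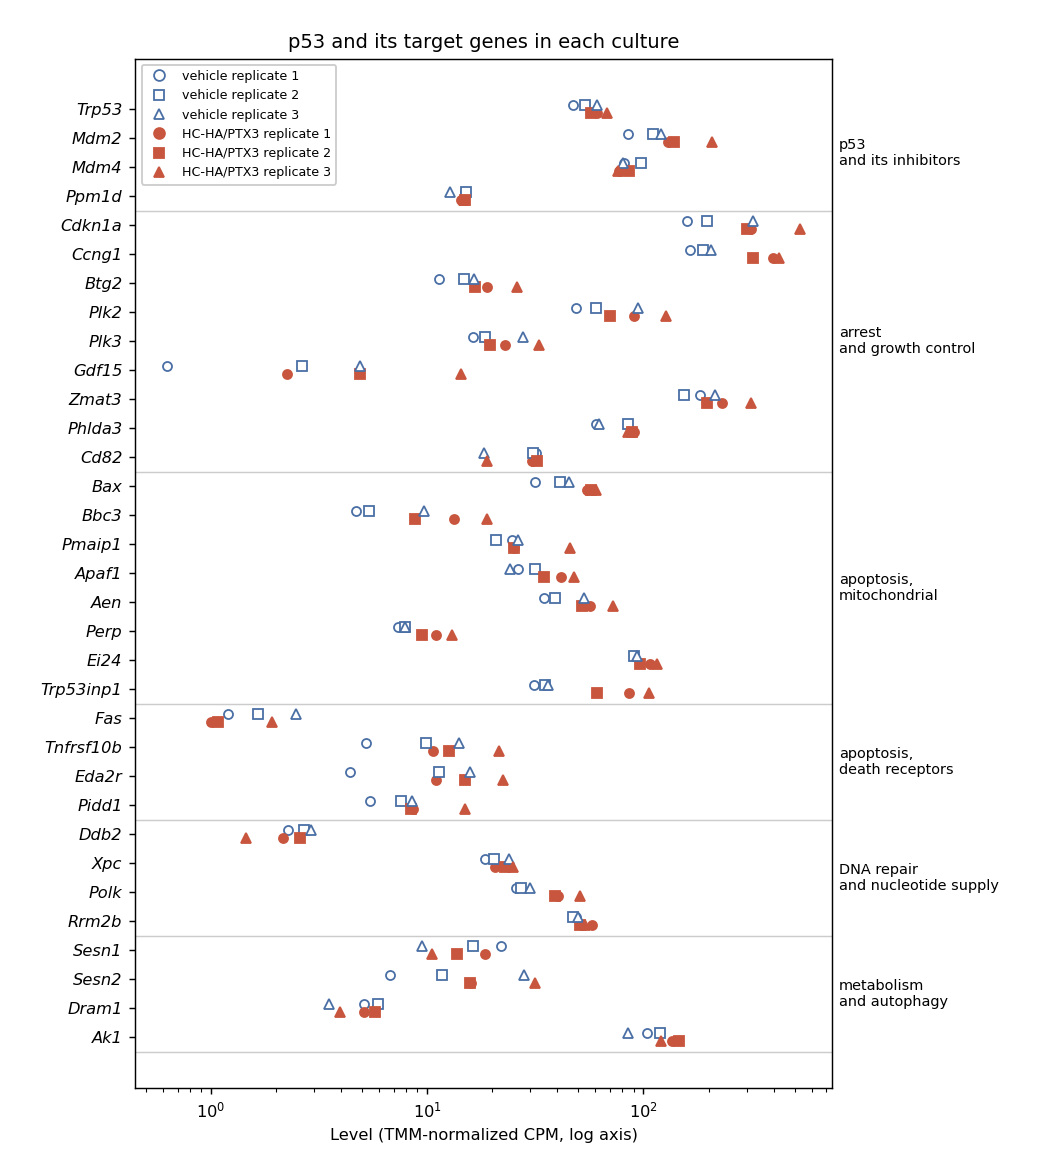
Levels in CPM (horizontal axis, log scale) of the 33 members in the 3 vehicle (open blue) and 3 HC-HA/PTX3 cultures (filled red), grouped by role, with 1 point per culture and a shape per replicate number. The levels run from 0.624 CPM for Gdf15 in vehicle replicate 1 to 532 CPM for Cdkn1a in treated replicate 3, and in 11 members all treated points lie to the right of all vehicle points.

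In the death receptor class, which also holds the scaffold gene Pidd1, 3 of 4 genes were called. Tnfrsf10b, the mouse receptor for the death ligand TRAIL, was at 5.19, 9.92 and 14 CPM in the vehicle cultures and at 10.7, 12.6 and 21.4 CPM with HC-HA/PTX3. Eda2r, a receptor for ectodysplasin A2, was at 4.37, 11.4 and 15.7 CPM and at 11.0, 14.9 and 22.4 CPM. Pidd1, the death domain scaffold of the PIDDosome, which activates caspase-2, was at 5.42, 7.57 and 8.48 CPM and at 8.62, 8.44 and 15.0 CPM. In all 3 genes replicate 3 was the highest culture of both groups and the groups overlapped. The log2 fold change was 0.65 for Tnfrsf10b (SE 0.13, adjusted p = 0.00847 in edgeR). It was 0.71 for Eda2r (SE 0.16, adjusted p = 0.0133 in edgeR). For Pidd1 it was 0.56 (SE 0.14, adjusted p = 0.0229 in edgeR). All 3 calls were lost without the replicate 1 cultures, at log2 fold changes of 0.49, 0.45 and 0.50 with edgeR adjusted p-values of 0.0604, 0.0602 and 0.125, and Pidd1 also without the replicate 3 cultures, at 0.42. Fas, the receptor of the Fas ligand, had the lowest level per length of the members with vehicle, 0.859 CPM per kb of exon. It was at 1.20, 1.65 and 2.46 CPM in the vehicle cultures and at 0.997, 1.08 and 1.90 CPM with HC-HA/PTX3, lower in each pair, and did not pass the test (log2 fold change -0.42, SE 0.21, adjusted p = 0.189 in edgeR).

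Of the repair genes, Polk alone was called. It encodes the translesion polymerase kappa, which copies past damaged bases, and was at 25.8, 27.3 and 29.985 CPM in the vehicle cultures and at 40.2, 38.9 and 51.1 CPM with HC-HA/PTX3. The groups did not overlap, and the log2 fold change was 0.64 (SE 0.08, adjusted p = 0.00105 in edgeR). The damage sensors of nucleotide excision repair gave estimates of either sign, at 2.63 ± 0.325 and 2.06 ± 0.575 CPM (SD, n = 3) for Ddb2 and 20.9 ± 2.73 and 22.8 ± 2.16 CPM for Xpc (edgeR, adjusted p = 0.265 and 0.335). Rrm2b, the p53-induced subunit of ribonucleotide reductase that supplies nucleotides for repair, was at 48.5 ± 1.41 and 54.0 ± 3.38 CPM (SD, n = 3). Its groups did not overlap, but the log2 fold change was 0.15 (edgeR, adjusted p = 0.154).

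In metabolism and autophagy, 1 of 4 genes was called. Sesn2, a sestrin that restrains mTORC1 when amino acids are short, was at 6.69, 11.8 and 27.9 CPM in the vehicle cultures and at 15.9, 15.8 and 31.7 CPM with HC-HA/PTX3. Vehicle replicate 3 lay above treated replicates 1 and 2, and the log2 differences within pairs 1, 2 and 3 were 1.24, 0.43 and 0.18. The log2 fold change was 0.59 (SE 0.17, adjusted p = 0.0346 in edgeR, the largest of the called members). Without the replicate 1 cultures that of Sesn2 was 0.30 and without the replicate 2 cultures 0.66, with adjusted p-values of 0.162 and 0.1 in edgeR, and with limma-voom it was 0.49 (adjusted p = 0.0509), so none of these called Sesn2. Its relative Sesn1 was at 22.02, 16.2 and 9.45 CPM in the vehicle cultures and at 18.5, 13.7 and 10.5 CPM with HC-HA/PTX3, so that the replicate 3 cultures, highest for Sesn2, were the lowest for Sesn1 (log2 fold change -0.12, adjusted p = 0.498 in edgeR). Ak1, the adenylate kinase that balances ATP, ADP and AMP, was at 103 ± 16.9 and 134 ± 12.9 CPM (SD, n = 3) without overlap, and had an adjusted p of 0.00304 in edgeR at a log2 fold change of 0.39, under the threshold. Dram1, a lysosomal membrane protein of autophagy, was at 4.84 ± 1.22 and 4.93 ± 0.910 CPM (SD, n = 3), with a log2 fold change of 0.04.

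The start sites of the members were searched for the sequence that p53 binds. A p53 site is a pair of elements of 10 bases, each known as the p53 consensus decamer, with up to 13 bases between them. The windows searched run from 250 bases before to 50 bases after each RefSeq transcript start (GRCm38.p6, which is mm10), on both strands, the decamer being its own reverse complement. Of the members, 25 had a window, and 8 did not (Zmat3, Pmaip1, Perp, Trp53inp1, Tnfrsf10b, Ddb2, Xpc and Rrm2b). A decamer lay in a window of 10 of these 25, against 9.55% of all 27025 genes with a window. Counted by window, it lay in 11 of the members' 39 (28.2%), against 8.36% of 32851 windows. The members were chosen as direct targets of p53, so these shares are not a separate test. It was found in 6 of 14 called members (Mdm2, Cdkn1a, Ccng1, Bax, Aen and Polk) and in 4 of 11 that were not called (Trp53, Ppm1d, Ei24 and Sesn1). Sites are often further away or within introns, so a window without a match says only that these letters are not in it. A pair of exact matches with its spacer was in 0.0731% of windows and, of the members, in Cdkn1a alone, with a spacer of 12 bases. This pair lies upstream of the first Cdkn1a start, at -2863 to -2832 from its downstream start. The 10 bases directly after the second Cdkn1a decamer differ from the consensus only at their first base, so the search did not count them. Which of these bases p53 binds was not tested. The sequences below are those of called members whose decamer lies outside annotated exons, and of Trp53, because the p53 gene holds such a decamer without being called. They are RefSeq sequences written 5′ to 3′ on the strand of the gene, all upstream of the RefSeq start (for Polk inside the longer span of the gene in GENCODE, outside its exons), with the decamers in capitals and negative positions counting bases before the start.
Cdkn1a, chr17:29090892-29090951, plus strand, decamers at -73 to -64 and -51 to -42: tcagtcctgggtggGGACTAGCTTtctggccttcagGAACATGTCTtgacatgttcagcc
Ccng1, chr11:40755442-40755491, minus strand, decamer at -185 to -176: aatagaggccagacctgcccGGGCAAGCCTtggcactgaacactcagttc
Mdm2, chr10:117710915-117710964, minus strand, decamer at -186 to -177: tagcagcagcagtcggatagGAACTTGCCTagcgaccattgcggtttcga
Bax, chr7:45467070-45467119, minus strand, decamer at -201 to -192: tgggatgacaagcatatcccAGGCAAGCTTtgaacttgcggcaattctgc
Polk, chr13:96519389-96519437, minus strand, decamer at -231 to -222: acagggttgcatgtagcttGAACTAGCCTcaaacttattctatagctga
Trp53, chr11:69580264-69580313, plus strand, decamer at -75 to -66: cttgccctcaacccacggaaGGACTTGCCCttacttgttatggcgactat

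The members also differed between cultures of one group. The replicate 3 culture was the highest vehicle culture for 24 of 33 members, against 35.4% of tested genes, and the highest culture in both groups for 22, against 24.5%. Of the 17 called members, replicate 3 was the highest treated culture for all 17 and the highest vehicle culture for 15, the exceptions being Apaf1 and Perp. The difference between treated and vehicle was positive for 27, 27 and 30 members in pairs 1, 2 and 3. Higher values in all 3 pairs were seen for 26 members (78.8%), against 25.2% of tested genes. The median log2 difference over the called members was 0.89 in pair 1, 0.41 in pair 2 and 0.72 in pair 3, and over all tested genes it was between -0.02 and 0.00. Pair 2 had the smallest difference for 15 of the 17 and the largest for none, while pair 1 had the largest for 11 and pair 3 for 6. Without the replicate block, the same test called 0 of the 33 members and 0% of tested genes, with 13 members at an unadjusted p under 0.05, all higher, against 11.4% of tested genes. The smallest adjusted p of a member was then 0.178 (edgeR, Ccng1).

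**Figure D4:**
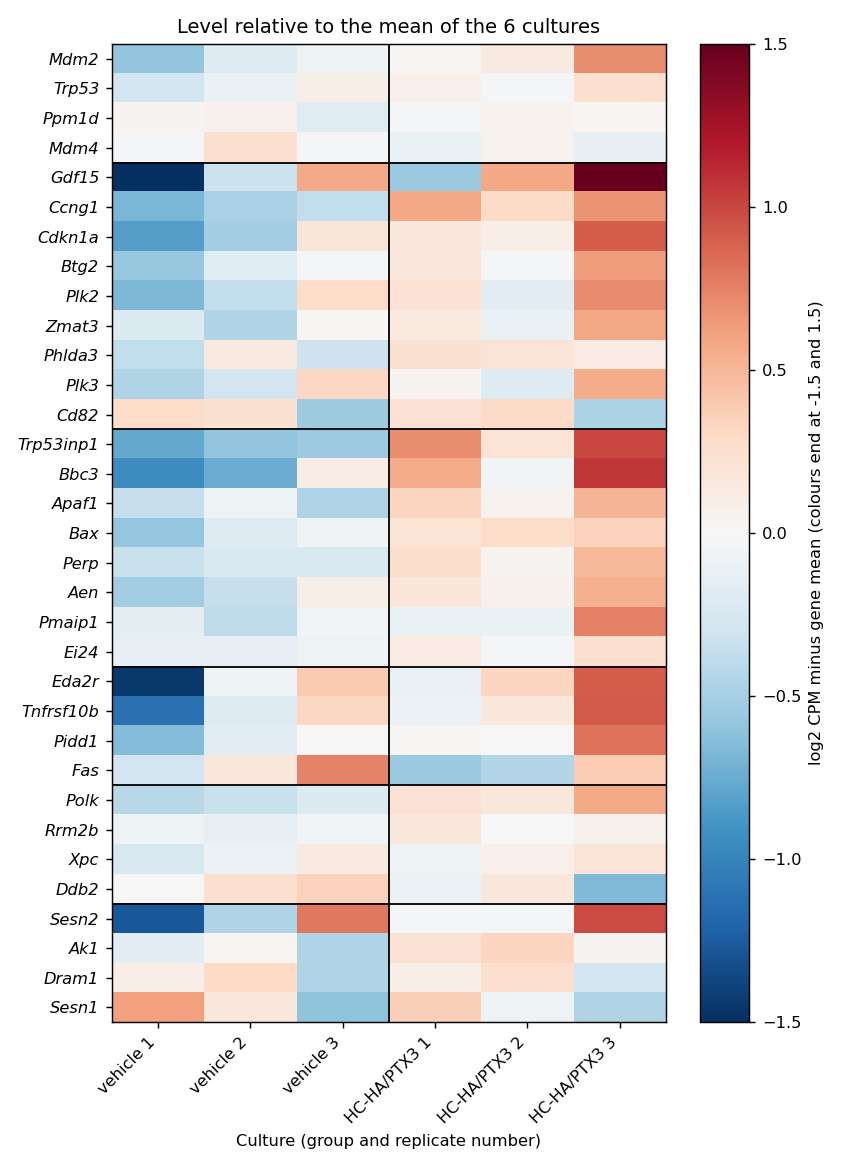
Level of each of the 33 members in each of the 6 cultures as the log2 difference from the gene's mean over all cultures (colour scale), with rows grouped by role and columns by treatment and replicate number. Red marks levels above the mean and blue levels below it. Dark red gathers in treated replicate 3, the highest treated culture for all 17 called members, while Sesn1 and Cd82 were lowest in replicate 3 of both groups.

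The direction of the members was set beside 6 other gene lists of the pathway. The 24 genes that p21 represses through the DREAM complex, which code for the machinery of DNA replication and mitosis, were nearly all lower. Of these, 23 were called lower and 0 higher, beside 5.38% and 3.32% of all tested genes. The median log2 fold change was -1.17, and the only one not called was E2f1 (-0.30, adjusted p = 0.0312 in edgeR). Cyclin B2 (Ccnb2) went from 11.7 ± 7.18 to 4.64 ± 2.35 CPM (SD, n = 3), a log2 fold change of -1.29 (edgeR, adjusted p = 0.000547). Foxm1, a transcription factor of mitotic genes, went from 37.8 ± 17.1 to 15.5 ± 9.07 CPM (SD, n = 3) at -1.39 (edgeR, adjusted p = 0.000626). The mitotic kinase Plk1 and the repair gene Brca1 also fell, by 1.34 and 0.88 on the log2 scale (edgeR, adjusted p = 0.000878 and 0.000938). All 6 markers of dividing cells belong to this list, and their summed level was 712, 498 and 223 CPM in vehicle replicates 1, 2 and 3 and 240.1, 248 and 39.1 CPM in the treated cultures. A lower level of the list per cell and fewer dividing cells therefore cannot be told apart here. Without the replicate block, 0 of the 24 were called and the median was -1.12.

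A further 30 reported p53 targets outside the members gave a mixed result. Of 29 tested, 4 were called higher and 2 lower, beside 3.32% and 5.38% of all tested genes. The median log2 fold change was 0.13. Of the members, 51.5% were called higher. Gadd45a, a growth arrest and DNA damage gene, rose from 86.6 ± 15.2 to 128 ± 17.5 CPM (SD, n = 3), at 0.57 (edgeR, adjusted p = 0.000639). The thiamine transporter gene Slc19a2 rose from 17.7 ± 4.30 to 35.2 ± 8.31 CPM (SD, n = 3), at 0.99 (edgeR, adjusted p = 0.00105). Ephx1, an epoxide hydrolase, rose by 0.56 (edgeR, adjusted p = 0.00112). Fibroblast markers were lower in the treated cultures, with 3 of 6 called lower, beside 5.38% of all tested genes. Their sum was 2138, 2152 and 895 CPM in the vehicle cultures against 1151, 1382 and 303 CPM with HC-HA/PTX3. Their part in the lower values on this list was not tested.

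Other parts of the pathway were counted in the same way, beside 3.32% of tested genes called higher and 5.38% called lower. Of 18 tested upstream regulators of p53, 0 were called higher and 2 lower, the kinases Hipk2 (log2 fold change -0.52, adjusted p = 0.00167 in edgeR) and Chek1 (-0.67, adjusted p = 0.00583), with a median of -0.05, and the 0 higher calls are near the share over all tested genes. Chek1 is also on the DREAM list. Of the 17 genes of the BCL2 family and apoptosome that are not among the members, 0 were called in either direction, again near the overall shares, at a median of -0.00. By adjusted p alone, 1 of these 17 was lower, against 11.5% of all tested genes. It was Bcl2, the inhibitor of apoptosis (-0.31, adjusted p = 0.0231 in edgeR). Among 15 cyclin-dependent kinase inhibitors and partners, 0 were called higher and 7 lower, led by the inhibitor Cdkn2c (-1.08, adjusted p = 0.000938 in edgeR), the cyclins Ccne1 and Ccne2 (-0.86 and -0.74, adjusted p = 0.00124 and 0.00185) and the kinase Cdk6 (-0.73, adjusted p = 0.00145). The 0 higher calls on this list are near the share over all tested genes. By adjusted p alone, 2 of its genes were higher and 8 lower, beside 7.67% and 11.5% of all tested genes. The higher ones were the inhibitor Cdkn2d (0.26, adjusted p = 0.0284 in edgeR) and Rb1 (0.28, adjusted p = 0.0226).

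The transcription factors ATF4 and CHOP, which drive the integrated stress response, also induce Sesn2, Gdf15, Tnfrsf10b and Bbc3. Their other targets were therefore counted, in a list that also holds Atf4 itself and Ddit3, the gene of CHOP. Of 16, 0 were called higher and 1 lower (Stc2, log2 fold change -0.89, adjusted p = 0.0427 in edgeR), at a median of 0.08 and near the shares over all tested genes, 3.32% and 5.38%. The lower call was lost with DESeq2, with upper-quartile scaling and on leaving out any replicate number, and without the replicate 3 cultures 1 gene of the list was called higher. By adjusted p alone, 3 of the 16 were higher and 4 lower, beside 7.67% and 11.5% of all tested genes. The higher ones were Ppp1r15a, Cebpb and Atf3 at log2 fold changes of 0.46, 0.34 and 0.23 (edgeR, adjusted p = 0.00188, 0.0258 and 0.0304). The summed level of the 16 genes was 885, 959 and 1643 CPM in the vehicle cultures and 913, 1006 and 1635 CPM with HC-HA/PTX3. Of this, Atf4 made up 121, 146 and 385 CPM in the vehicle cultures and 135, 173 and 349 CPM with HC-HA/PTX3. The sum was high in replicate 3 of both groups, as were Sesn2, Gdf15, Tnfrsf10b and Bbc3, and close between same-numbered cultures. The sum of satellite glial markers, in contrast, was lowest in replicate 3, at 594 CPM in the vehicle culture and 624 CPM with HC-HA/PTX3. Of these markers, S100b was instead lowest in replicate 2 of both groups. The sums of Schwann cell, fibroblast, mural cell and dividing cell markers were also lowest in replicate 3 of both groups. Neuron markers lay at 6102 to 7187 CPM in the vehicle cultures and at 6743 to 7694 CPM with HC-HA/PTX3. The part of these differences in the members' levels was not tested.

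**Figure D5:**
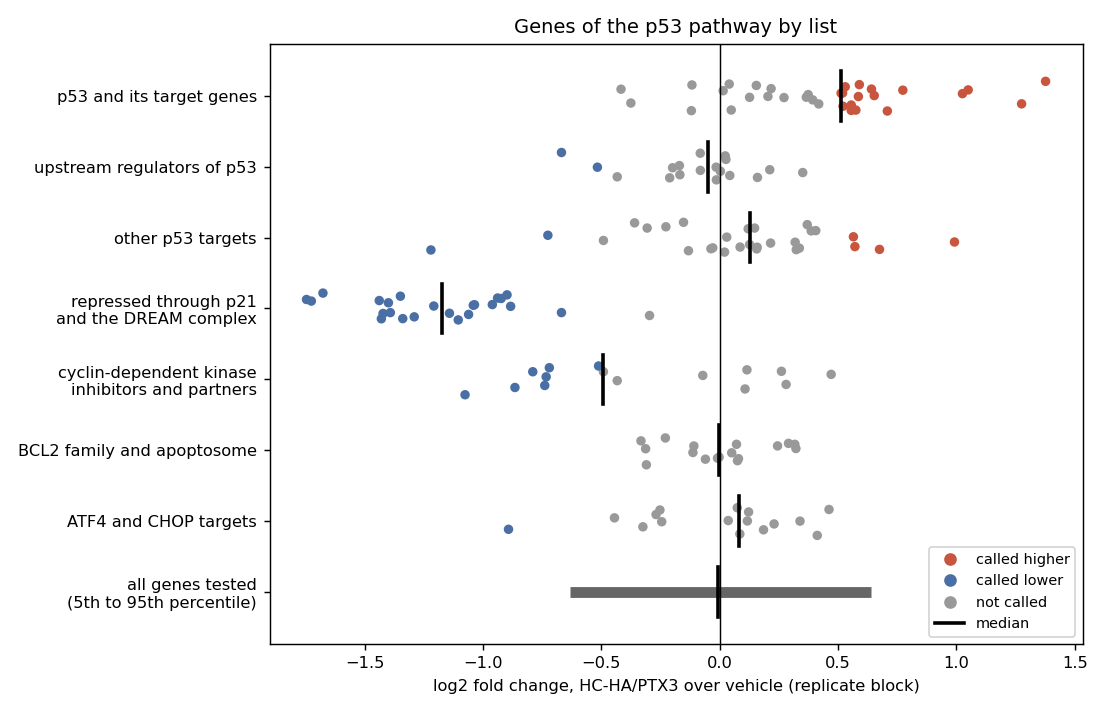
Log2 fold change, HC-HA/PTX3 over vehicle (horizontal axis), of every tested gene of the 33 members and of 6 other lists, from the blocked edgeR fit; red points are called higher, blue called lower and grey not called, black lines are medians and the grey bar spans the 5th to 95th percentile of all tested genes. The median is 0.51 for the members, -1.17 for the genes repressed through p21 and the DREAM complex, and between -0.49 and 0.13 for the other lists.

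Shared reads limit a few of these values. The strand setting of the counting is not given in the sources used here, so it is not known whether reads from exons overlapping on opposite strands were kept apart. Exons of Cdkn1a overlap those of a gene on the opposite strand by 273 bases, as do exons of Plk3 by 84, Ei24 by 324, Ddb2 by 652 and Rrm2b by 734. Exons of Bax overlap those of a gene on the same strand by 192 bases, which no strand setting separates.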

How the data were processed

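RNA was sequenced from 6 cultures of DRG neurons, 3 with vehicle and 3 with HC-HA/PTX3, grouped by the sample labels. The authors aligned the reads to mm10 and counted them per gene with featureCounts. The submitters' notes and the methods name HISAT2, while the file headers name STAR. The deposited values are raw counts, not normalized or pooled.

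Counts were analysed in R 4.3.3 with edgeR 4.0.16 (filterByExpr, TMM, glmQLFit and glmQLFTest, Benjamini-Hochberg adjustment). The treatment effect was fitted with the replicate number as a block, standing in for the batch term of the methods. To check the pairing, each culture's deviation from its group mean was correlated across genes, which gave 0.631, 0.536 and 0.774 for cultures that share a number and -0.613 to 0.148 for the others. The numbers were treated as pairs. Within each group, no culture was a duplicate of another. Standard errors were derived from the quasi-likelihood F statistic, and log2 differences within pairs used a prior count of 2. Positions and exon lengths come from GENCODE M21 (mm10), and promoter windows from RefSeq. Alternatives were a fit without the block, ComBat-seq (sva 3.50.0) followed by limma 3.58.1, DESeq2 1.42.0, limma-voom, other scalings and filters, and each replicate number left out. The fits were also run on data simulated from the blocked fit, with changes larger than those of the members. That run does not bear on calls near the fold threshold or on the choice of block.

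The members and lists were chosen with earlier results of these data known. Every member is named. Full values are given for Trp53, Mdm2, Cdkn1a and called members, and for other lists up to 4 called genes by smallest p. One gene that this rule names is not reported here. A count of 3, the floor, is at most 0.0808 CPM. Members of low count, such as Gdf15 with 25 counts in one culture, carry more counting error than abundant ones.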

Additional observations from a re-analysis of the deposited data

How the results depend on the processing

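The number of members called higher, 17 with the replicate block, was 0 without the block or pairing, where the median log2 fold change was 0.45. Leaving out both cultures of one replicate number gave 8 to 17 called members, with 8 without replicate 1, 17 without replicate 2 and 12 without replicate 3. The 8 without replicate 1 were 7 of the main calls and Pmaip1. The 17 without replicate 2 were 16 of the main calls and Phlda3, with Sesn2 lost. All 12 without replicate 3 were among the main calls. By adjusted p alone 21 members were higher. The count was 14 with ComBat-seq and limma, 16 with limma-voom, 17 with DESeq2, 17 with upper-quartile scaling, 17 with raw library sizes, 16 with no filter on low counts and 17 with at least 10 counts in every culture. No member was called lower under any of these settings, and the median lay between 0.41 and 0.57. Cdkn1a, Ccng1, Gdf15, Bbc3, Trp53inp1 and Polk remained called in each of the 10 alternatives that keep a block or batch step. The replicate block changed no direction of a member. Over all tested genes, the calls went from 607 higher and 984 lower to 0 and 0 without the block, to 1012 and 1115 with ComBat-seq and limma, to 360 and 851 with DESeq2 and to 248 and 630 without replicate 1. The calls lost with ComBat-seq and limma were Btg2, Plk2 and Perp, with no filter Plk2 and with limma-voom Sesn2. The low-count members Ddb2 and Fas had standard errors of 0.22 and 0.21.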
